A study of Hemigymnus melapterus and Thalassoma lunare and Coris batuensis with 46 samples.

Results

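Forebrain transcript counts of Halichoeres melanurus were set against those of Thalassoma lunare, a pair of species from the reef fish family of the wrasses, Labridae. The comparison was between 17 of the 46 libraries of the series, 8 of Halichoeres and 9 of Thalassoma, with 1 library per fish. Libraries were chosen by the species in their labels, and 2 were left out, labelled Halichoeres melanurus 2 and Thalassoma lunare 4, because their counts were nearest to the other species. All fish were females, no treatment was given, and the labels call both species facultative cleaners, fishes that at times pick parasites off other fishes. The tissue was a forebrain slice of 300 µm, frozen after the head had been kept in RNAlater, with a time between capture and death of 6 to 28 minutes over the series. The labels give no age, size, site or batch, so these cannot be told apart from the species. The edgeR tests took their filter, scaling and spread from 44 libraries, these 17 and those of the other species of the series. By their labels, Hemigymnus melapterus is a facultative cleaner, and Coris batuensis and Labrichthys unilineatus are non-cleaners.

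The slice held the pallial areas Dl and Dm with parts of the septum and striatum. Area Dl is regarded as the fish counterpart of the hippocampus, which serves spatial and relational memory in mammals, and Dm as the counterpart of the basolateral amygdala, which serves emotional learning. Septal and striatal areas take part in social behaviour and in reward in vertebrates. Libraries were made by 3′ tag sequencing, which reads 1 end of each polyadenylated transcript. Each fish had 2 tables of raw counts, on identifiers that begin with ENSONIT and on identifiers that begin with Ldim_g. The files do not pair identifiers with gene names and no table of names was used here, so the tissue could not be checked against marker genes, and no function is stated for any feature.

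All fish of both species were counted on the same identifiers. A lower count can therefore reflect fewer transcripts or fewer reads that aligned, and these cannot be told apart. In a bulk slice, fewer cells of a type and less RNA per cell cannot be told apart either.

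Thalassoma libraries were larger. Reads listed per library ran from 357646 to 916956 in Halichoeres, with a median of 702469, and from 759231 to 1072478 in Thalassoma, with a median of 924388. The means were 700097 ± 167574 (SD, n = 8) and 918965 ± 104967 (SD, n = 9), and p was 0.00350 in a two-sided exact permutation test (0.00699 after Benjamini-Hochberg adjustment for the 12 measures of libraries that were compared). ENSONIT counts followed the reads, with 17501 to 43814 per library in Halichoeres and 36350 to 49935 in Thalassoma. Reads listed are the total of the Ldim_g table of a library, including its lines that name no gene. Per 100 of these reads, ENSONIT counts amounted to 4.69 ± 0.122 (SD, n = 8) and 4.71 ± 0.169 (SD, n = 9), exact permutation p = 0.737, adjusted p = 0.804. The lowest and highest values were 4.55 and 4.89 in Halichoeres and 4.38 and 4.89 in Thalassoma, so the ranges overlapped almost wholly.

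ENSONIT transcripts detected numbered 7846 ± 1119 (SD, n = 8) per library in Halichoeres and 9382 ± 598 (SD, n = 9) in Thalassoma, exact permutation p = 0.000946, adjusted p = 0.00568, beside the lower counts of Halichoeres. The 10 most abundant Ldim_g genes held 9.55% ± 0.267 (SD, n = 8) of assigned counts in Halichoeres and 10.3% ± 0.437 (SD, n = 9) in Thalassoma, exact permutation p = 0.00185, adjusted p = 0.00679. For the 10 most abundant ENSONIT transcripts the shares were 8.75% ± 0.459 and 8.74% ± 0.271 (SD, n = 8 and 9), exact permutation p = 0.964, adjusted p = 0.964, and for Ldim_g genes detected the means were 4916 ± 671 and 5063 ± 256, exact permutation p = 0.609, adjusted p = 0.731.

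The share of reads that fell in Ldim_g genes separated the species. It ran from 4.64% to 5.47% in Halichoeres, with a median of 4.90%, and from 3.70% to 4.53% in Thalassoma, with a median of 4.12%. Every Halichoeres library lay above every Thalassoma library, and the exact two-sided permutation p was 8.23e-05, the smallest that this design can give (adjusted p = 0.000987). The share of reads left unaligned was lower in Halichoeres, at 58.8% ± 0.989 (SD, n = 8) against 61.1% ± 1.39 (SD, n = 9), exact permutation p = 0.00226, adjusted p = 0.00679, and the ranges overlapped. Ldim_g counts per library amounted to 34847 ± 9129 (SD, n = 8) and 37590.4 ± 3400 (SD, n = 9), exact permutation p = 0.439, adjusted p = 0.586.

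**Figure D1:**
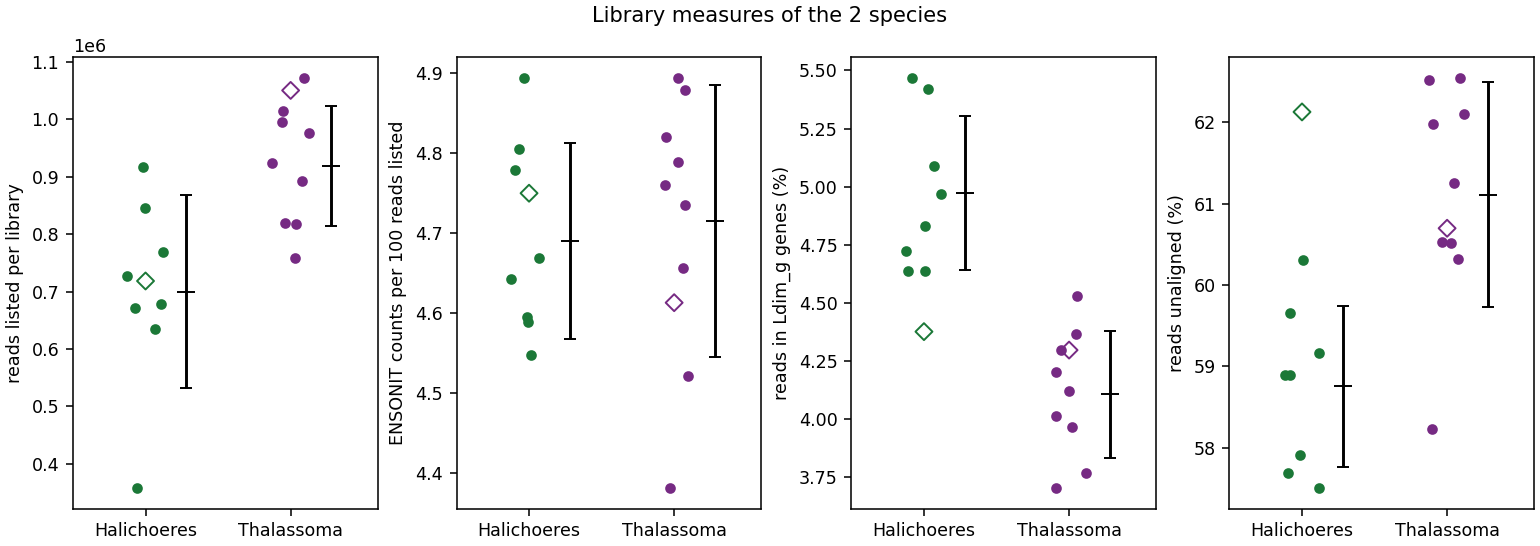
Each point is 1 library of Halichoeres (green) or Thalassoma (purple), for the reads listed, the ENSONIT counts per 100 reads, the percent of reads in Ldim_g genes and the percent unaligned; bars give the mean and SD of the 8 and 9 libraries, and open diamonds the 2 libraries left out. The kept libraries of the species do not overlap in the percent of reads in Ldim_g genes, 4.64% to 5.47% against 3.70% to 4.53%, and overlap in the other panels.

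The 2 libraries left out had been picked by their counts over features. The library labelled Halichoeres melanurus 2 correlated at r = 0.941 with the mean of Thalassoma and at 0.725 with its own labelled species (Pearson, across the ENSONIT features, on the log2-CPM scale). The library labelled Thalassoma lunare 4 correlated at 0.952 with Halichoeres and at 0.754 with its own label. On the Ldim_g side the values were 0.950 and 0.764 for the former and 0.958 and 0.782 for the latter. Each of the other 44 libraries was nearest to its own species in both sets. The share of reads in Ldim_g genes was not used to pick them. It was 4.38% in Halichoeres melanurus 2, below the other Halichoeres libraries and within the range of Thalassoma, and 4.30% in Thalassoma lunare 4, within the range of its own label. Leaving out libraries for their likeness to the other species bears on the size of the contrast. Counts of calls, and of calls with a log2 fold change of 1 or more in size, are therefore also given with all libraries. Counts of changes of 2 or more and of features without overlap cover the kept libraries only.

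Over the 690 ENSONIT transcripts with enough counts to be tested, 265 (38.4%) passed a Benjamini-Hochberg adjusted p of 0.05 in the quasi-likelihood test of edgeR and are called different here. Higher in Halichoeres were 127 transcripts (18.4%) and higher in Thalassoma were 138 (20%). In 166 of them (24.1% of those tested) the log2 fold change was 1 or more in size, with 81 higher in Halichoeres and 85 in Thalassoma, and in 71 it was 2 or more, with 29 and 42. The median log2 fold change, Halichoeres minus Thalassoma, was -0.02 over all tested transcripts. TMM scaling centres fold changes near 0, so this median and the balance of the directions depend on the scaling. With all 46 libraries under their labels 225 of 720 transcripts passed, 111 higher in Halichoeres and 114 in Thalassoma, and 214 of the 265 were among them in the same direction. Of the 225, 132 had a log2 fold change of 1 or more in size, beside the 166 of the main fit.

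The Ldim_g counts gave a larger share. Of 736 genes tested, 360 differed (48.9%, same edgeR threshold), with 175 higher in Halichoeres (23.8%) and 185 in Thalassoma (25.1%). In 210 genes (28.5%) the size of the log2 fold change was 1 or more, with 109 higher in Halichoeres and 101 in Thalassoma. With all 46 libraries 302 of 753 genes passed, 157 of them with a log2 fold change of 1 or more in size. The identifiers of the sets could not be matched to each other, so the sets are given side by side and not joined.

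**Figure D2:**
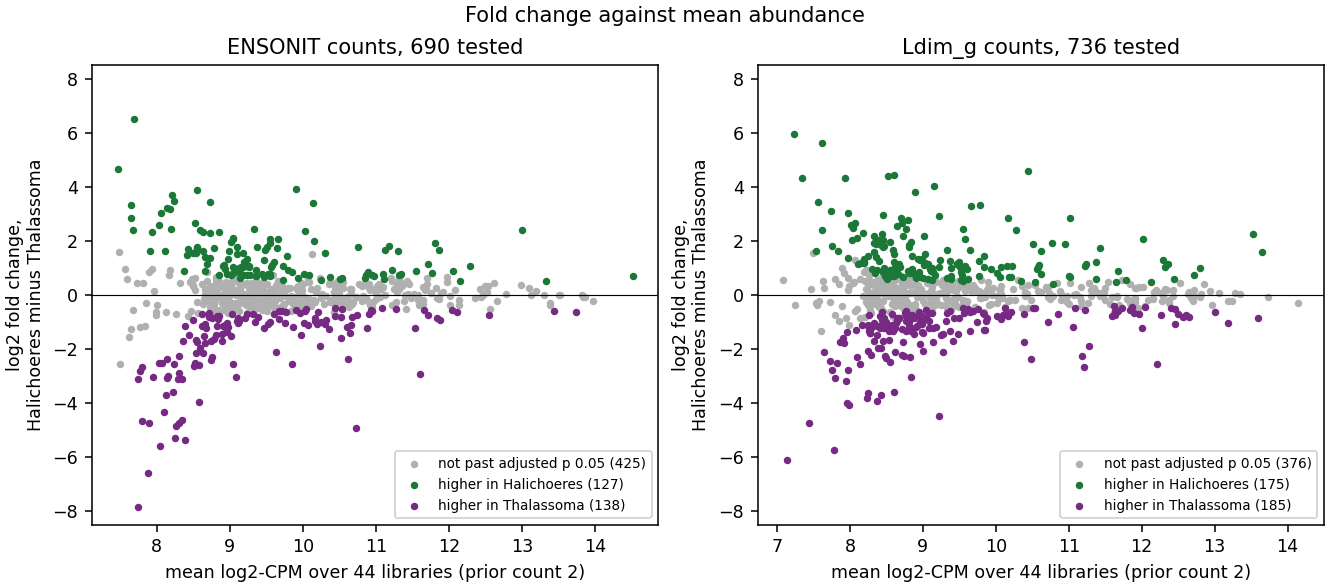
Each point is 1 tested feature, at its mean log2-CPM over the 44 fitted libraries (x axis) and its log2 fold change, Halichoeres minus Thalassoma (y axis), in the ENSONIT and Ldim_g counts; coloured points passed an adjusted p of 0.05. Calls lie on both sides of 0 in similar numbers, 127 and 138 ENSONIT transcripts and 175 and 185 Ldim_g genes, with log2 fold changes from -7.86 to 6.51 and from -6.10 to 5.96. This balance depends on the scaling, since with upper quartile scaling the numbers were 129 and 128 transcripts and 157 and 207 genes.

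The CPM of every kept fish of one species lay above that of every kept fish of the other in 106 ENSONIT transcripts (15.4% of those tested), 49 with Halichoeres above and 57 with Thalassoma above. Of these, 105 were among the 265 calls. Among the 71 calls with a log2 fold change of 2 or more in size, 57 were separated in this way. Likewise 138 Ldim_g genes (18.8%) were separated, 67 with Halichoeres above and 71 with Thalassoma above, and 137 of them were called. The libraries left out were picked for likeness to the other species, so these counts describe the kept libraries only. Halichoeres melanurus 2 lay on the side of its label in 9 of the 106 transcripts, and Thalassoma lunare 4 in 6.

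The 4 transcripts described next were taken from the separated calls with at least 5 counts per library in the higher species, by the largest difference of mean log2-CPM. The second in each direction also needed 10 counts in the lower species. Their values chose them, so the tests beside them describe size and error.

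ENSONIT00000007528.1 had the largest difference of mean log2-CPM on the Halichoeres side under this rule. Its counts ran from 26 to 62 per library in Halichoeres and from 2 to 8 in Thalassoma. The CPM, a count scaled to a common total of tested counts after TMM normalization, was lowest at 1649, median 2433 and highest at 3333 in Halichoeres, and 67.9, 132 and 297 in Thalassoma. The groups did not overlap, and the lowest Halichoeres fish stood well above the highest Thalassoma fish. Fitted by edgeR, Halichoeres was higher by 3.91 on the log2 scale (SE 0.34, adjusted p = 6.9e-15). In mean CPM the other species lay between them, though Hemigymnus 10 and Hemigymnus 1 had 0 counts, below every Thalassoma fish. Labrichthys had a mean of 1761 ± 392 CPM (SD, n = 8), Coris one of 1108 ± 280 (SD, n = 9) and Hemigymnus one of 989 ± 708 (SD, n = 10). Thalassoma was lower than each of them (edgeR adjusted p from 1.98e-12 to 2.03e-08), while Halichoeres was higher than Coris and Hemigymnus (adjusted p = 0.000566 and 0.000116) and its log2 difference from Labrichthys was 0.50 (SE 0.26, adjusted p = 0.133).

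ENSONIT00000012176.1 was the second transcript on that side. In Halichoeres its CPM was lowest at 1399, median 3492 and highest at 4899, from 28 to 92 counts per library, and in Thalassoma it was 132, 379 and 425, from 3 to 12 counts. The fish of the species did not overlap. Halichoeres was higher by 3.39 on the log2 scale (SE 0.25, adjusted p = 2.1e-17, edgeR). Here the other species were spread over the whole range, Hemigymnus at 4481 ± 1606 CPM (SD, n = 10), Coris at 1319 ± 364 (SD, n = 9) and Labrichthys at 94.4 ± 64.4 (SD, n = 8). The log2 difference of Halichoeres minus Hemigymnus was -0.46 (SE 0.20, edgeR adjusted p = 0.0626), and Labrichthys was below Thalassoma (Thalassoma minus Labrichthys 1.66, SE 0.41, adjusted p = 0.000589).

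ENSONIT00000004952.1 had the largest difference of mean log2-CPM on the Thalassoma side and the highest level of the 4. Its counts were 184 to 326 per library in Thalassoma and 2 to 9 in Halichoeres. The CPM was lowest at 6825, median 9484 and highest at 13315 in Thalassoma, and 158, 339 and 443 in Halichoeres. The groups lay far apart, and the log2 fold change of Halichoeres minus Thalassoma was -4.90 (SE 0.29, edgeR adjusted p = 2.03e-21). Labrichthys stood nearest to Thalassoma with 5391 ± 2158 CPM (SD, n = 8), yet below it (Thalassoma minus Labrichthys 0.88, SE 0.22, edgeR adjusted p = 0.000633). Coris, at 889 ± 400.1 CPM (SD, n = 9), and Hemigymnus, at 855 ± 503 (SD, n = 10), were above Halichoeres (edgeR adjusted p = 0.000555 and 0.000138), and Halichoeres was the lowest of all 5 species.

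ENSONIT00000009162.1 was the second on that side and was high in Thalassoma against every other species. The CPM in Thalassoma was lowest at 2899.6, median 3308 and highest at 4358, from 62 to 109 counts per library. In Halichoeres it was 0, 72.7 and 192, from 0 to 5 counts, 12 in all. The log2 fold change of Halichoeres minus Thalassoma was -5.37 (SE 0.30, edgeR adjusted p = 2.71e-22). Coris had a mean of 61.9 ± 44.3 CPM (SD, n = 9), Hemigymnus one of 97.2 ± 99.6 (SD, n = 10) and Labrichthys one of 154 ± 101 (SD, n = 8). Thalassoma was higher than each (edgeR adjusted p from 4.16e-23 to 1.12e-21), and Halichoeres did not pass the threshold against any of them (adjusted p from 0.226 to 0.979). No fitted fish of another species had more than 6 counts, so the transcript entered the test through Thalassoma alone. These comparisons therefore describe size only.

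The libraries left out were nearer to the other species than to their label in all 4 transcripts, by the counts that had picked them. Halichoeres melanurus 2 had 0 counts of ENSONIT00000007528.1 and 405 of ENSONIT00000004952.1, and Thalassoma lunare 4 had 43 and 21. For ENSONIT00000009162.1 they had 54 and 0 counts, and for ENSONIT00000012176.1 they had 8 and 74. With these libraries under their labels the log2 fold change of ENSONIT00000004952.1 was -1.72 (edgeR adjusted p = 0.0103) and that of ENSONIT00000009162.1 was -2.99 (adjusted p = 2.97e-06). Those of ENSONIT00000007528.1 and ENSONIT00000012176.1 were 2.81 (adjusted p = 1.58e-06) and 2.43 (adjusted p = 6.92e-07).

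**Figure D3:**
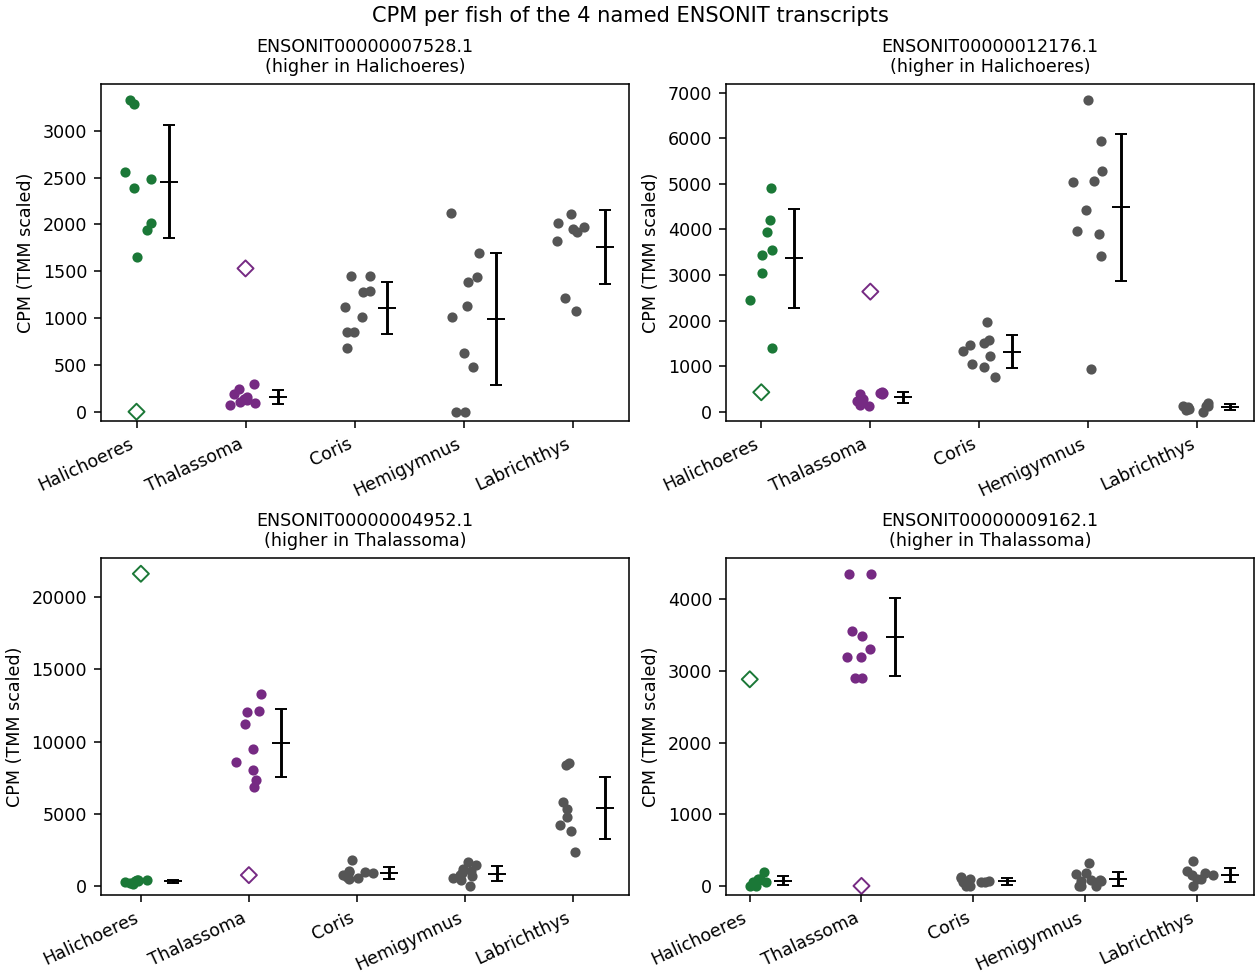
Each point is the CPM of 1 fish (y axis, linear, scaled by TMM) in the 5 species for the 4 named ENSONIT transcripts; bars give the mean and SD, and open diamonds the 2 libraries left out. By the rule that picked the transcripts, the kept fish of Halichoeres and Thalassoma do not overlap in any panel. Labrichthys lies near Halichoeres in the first (1761 CPM), below Thalassoma in the second (94.4 CPM), between both in the third (5391 CPM) and near Halichoeres in the fourth (154 CPM).

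Not every feature whose ranges did not overlap had the left-out libraries on the other side. Counts over features had picked these libraries, so the numbers that follow describe them and support nothing. Halichoeres melanurus 2 lay within or beyond the range of Thalassoma in 83 of the 106 ENSONIT transcripts, within or beyond that of Halichoeres in 9 and between the ranges in 14. Thalassoma lunare 4 lay on the side of Halichoeres in 90, on that of Thalassoma in 6 and between in 10. In the 138 separated Ldim_g genes the former lay on the side of Thalassoma in 118 and the latter on that of Halichoeres in 112.

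In the Ldim_g counts the same rule for features picked genes with differences of like size. The first on the Halichoeres side had 51 to 205 counts per library in Halichoeres and 0 to 10 in Thalassoma, at 4758 ± 842 CPM (SD, n = 8) and 190.1 ± 118 (SD, n = 9). That is 4.59 on the log2 scale (SE 0.23, adjusted p = 1.51e-26, edgeR). The second had 46 to 82 counts against 1 to 6, and was 4.41 higher on the log2 scale (SE 0.24, edgeR adjusted p = 6.1e-25). No fitted fish of another species had more than 13 counts of this second gene. It entered the test through Halichoeres alone, so its comparison describes size only. On the Thalassoma side the first gene varied widely among the fish of that species, from 15 to 81 counts and from 510.5 to 2989 CPM, against 0 to 94.5 CPM in Halichoeres, and Halichoeres minus Thalassoma was -4.47 on the log2 scale (SE 0.47, adjusted p = 1.28e-12, edgeR). The second ran from 1361 to 2249 CPM in Thalassoma and from 42.7 to 201 CPM in Halichoeres, and the log2 difference was -3.70 (SE 0.24, edgeR adjusted p = 4.21e-21). The ranges of the species overlapped in none of these 4 genes, as the rule required. With all 46 libraries the log2 values of the 4 genes were 2.70, 2.42, -2.46 and -2.45.

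The 10 separated ENSONIT transcripts with the largest differences on the Halichoeres side had absolute log2 fold changes of 3.04 to 6.51, from 119 to 509 counts in Halichoeres and from 1 to 70 in Thalassoma. Those on the Thalassoma side had 4.34 to 7.86, from 311 to 2174 counts in Thalassoma and from 0 to 50 in Halichoeres, and in 6 of these 10 the lower species had fewer than 10 counts over all its libraries. The fitted size then depends on the prior count of the edgeR fit, which is not the prior count of 2 used for log2-CPM. Among Ldim_g genes the ranges were 3.28 to 5.96 on the Halichoeres side and 3.61 to 6.10 on the Thalassoma side.

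Some features were counted in 1 species alone. Without any filter, 16094 ENSONIT transcripts had a count in both species, 4593 in Thalassoma alone and 2357 in Halichoeres alone. Most of these had few counts, since 150 of the former and 43 of the latter reached 10 counts over the libraries of their species. Thalassoma had 389728 ENSONIT counts in all and Halichoeres 262085, and the part of this depth in the counts of such transcripts was not tested. The transcript with the most counts among those at 0 in Halichoeres had 331 in Thalassoma, from 15 to 50 in each of the 9 libraries, and was at least 74.2-fold higher against a floor of 3 counts over all Halichoeres libraries. The transcript with the most counts among those at 0 in Thalassoma had 60 in Halichoeres, from 2 to 15 per library, and was at least 29.7-fold higher. Of the Ldim_g genes, 92 with at least 10 counts were counted in Thalassoma alone and 54 in Halichoeres alone. A floor covers counting error only, and reads of a transcript at 0 may not have aligned.

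Which species carried a feature past the minimum for testing bore on how often it was called. The CPM of single fish given above are scaled to tested counts after TMM. The minimum for entry was set on another scale, CPM of all assigned counts without TMM. On that scale a feature needed at least 297 CPM, about 10 counts in the median library, in 8 of 44 libraries of any species. Of the 690 ENSONIT transcripts, 240 reached this in 8 libraries of Halichoeres and in 8 of Thalassoma, and 68 of them were called (28.3%), 33 higher in Halichoeres and 35 in Thalassoma. Another 35 reached it in 8 libraries of Halichoeres but not of Thalassoma, and 101 the reverse. Of these, 27 (77.1%) and 58 (57.4%) were called, all in the direction of the species in which they reached it. This split did not use Coris, Hemigymnus and Labrichthys, in which such transcripts may have reached the minimum too. Entry through 1 species alone favours a difference in that direction, so these shares support nothing. The remaining 314 reached it through other species or through fish of several species, and 112 (35.7%) were called.

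The 240 transcripts that passed in both species had a median absolute log2 fold change of 0.34, against 0.47 over all tested, and 18 calls (7.5%) of 1 or more. Ranges of the kept fish did not overlap in 30 of these 240 transcripts, beside 106 of all 690 tested (15.4%). For Ldim_g genes this held in 47 of the 241 that passed in both species, beside 138 of all 736 tested (18.8%). Among Ldim_g genes, 241 passed in both species and 91 (37.8%) were called, 43 higher in Halichoeres and 48 in Thalassoma, 28 of them (11.6%) with a log2 fold change of 1 or more in size. Of the 63 genes that passed in Halichoeres but not in Thalassoma, 58 (92.1%) were called, and of the 100 with the reverse, 74 (74%).

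**Figure D4:**
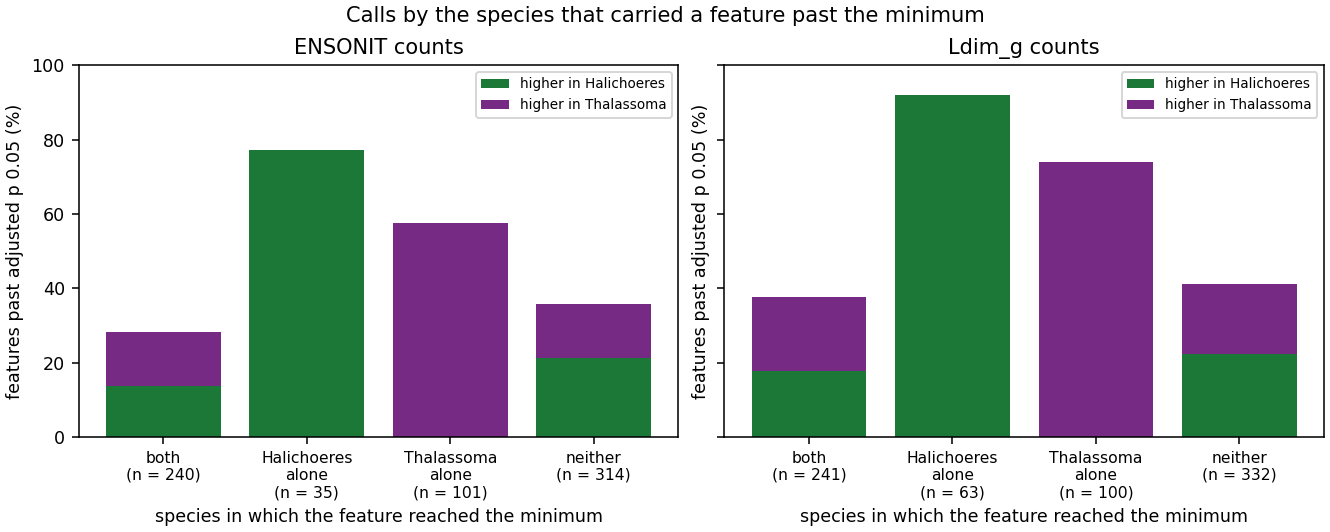
Bars give the percent of tested features past an adjusted p of 0.05, split by direction, for features that reached the minimum count in both species, in 1 of them alone or in neither. In the ENSONIT counts 28.3% of 240 transcripts that passed in both species were called, in near equal parts up and down, against 77.1% of 35 and 57.4% of 101 that passed in 1 species alone.

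Abundant transcripts had fewer large differences. When tested ENSONIT transcripts were ranked by mean level and cut into 4 parts of like size, the highest part, at a median of 55.4 counts per library, had 54 of 173 called (31.2%) and 18 (10.4%) with a log2 fold change of 1 or more in size. The lowest part, at 7.71 counts per library, had 98 of 173 called (56.6%) and 86 (49.7%) of that size. The median standard error of the log2 fold change was 0.33 in the lowest part and 0.20 in the highest. Among Ldim_g genes, 32 of 184 (17.4%) in the highest part and 83 of 184 (45.1%) in the lowest were called at that size. The part of the entry into the test in this pattern was not tested.

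The calls held a sizeable part of the counts. The 127 transcripts higher in Halichoeres made up 22.0% ± 1.62 (SD, n = 8) of tested ENSONIT counts in Halichoeres and 9.70% ± 0.359 (SD, n = 9) in Thalassoma. The 138 transcripts higher in Thalassoma made up 24.5% ± 0.488 (SD, n = 9) in Thalassoma and 11.1% ± 0.924 (SD, n = 8) in Halichoeres. The 425 transcripts that did not pass held 67.0% and 65.8%. These shares follow from the choice of the transcripts and carry no test. Among Ldim_g genes, the 376 that did not pass held 55.4% in both species.

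For many transcripts the interval was narrow enough to bound the difference. The 95% confidence interval of the log2 fold change lay wholly between -1 and 1 in 351 of the 690 ENSONIT transcripts (50.9%), and 331 of these were among the 425 that did not pass the threshold. The same held for 315 of 736 genes (42.8%), 284 of them not called. The smallest absolute log2 fold change that passed was 0.48 in the ENSONIT and 0.39 in the Ldim_g counts.

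Among the libraries kept, fish of a species resembled each other. The choice of libraries favours this, since the 2 left out had low correlations with their labelled species, 0.725 and 0.754 in ENSONIT counts. The values below therefore describe the kept libraries only. Within Halichoeres the correlation of a library with the mean of the other libraries ran from 0.930 to 0.964 over the tested ENSONIT transcripts, and within Thalassoma from 0.941 to 0.968. The biological coefficient of variation, the relative spread among fish beyond counting error, was 0.186 in Halichoeres and 0.154 in Thalassoma. Thinned to 17501 counts per library they were 0.177 and 0.142. For Ldim_g genes they were 0.156 and 0.162. These values were fitted within each species. The edgeR tests used the spread over 44 libraries, with a common value of 0.244 for ENSONIT and 0.239 for Ldim_g features. No test was made of the differences in spread between the species.

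The remaining 3 species show on which side of the contrast they fell. Their libraries had no part in choosing the calls beyond the shared spread, the shared scaling and the entry into the test. For each of the 265 ENSONIT calls, the mean log2-CPM of Coris, Hemigymnus and Labrichthys was placed above or below the midpoint between Halichoeres and Thalassoma. All 3 species were nearer to Halichoeres in 85 transcripts and all 3 nearer to Thalassoma in 37, while in 143 they were split. Of the 85, 47 were higher in Thalassoma and 38 in Halichoeres. Of the 37, 17 were higher in Halichoeres and 20 in Thalassoma. A feature high in 1 species alone can enter only through that species, which puts the other 3 on the opposite side. The minimum was reached in Thalassoma but not Halichoeres by 101 transcripts, and the reverse by 35. The part of entry in these counts and in the shares below was not tested. Coris was nearer to Halichoeres in 177 of 265 (66.8%), Labrichthys in 152 (57.4%) and Hemigymnus in 148 (55.8%). Over the 425 transcripts that did not pass, the shares were 52.9%, 47.8% and 54.4%. All 3 species were nearer to Halichoeres in 86 of these 425 (20.2%) and nearer to Thalassoma in 78 (18.4%). The Ldim_g counts gave 108 genes with all 3 species nearer to Halichoeres and 53 with all 3 nearer to Thalassoma of 360, and Coris was nearer to Halichoeres in 238 (66.1%), Hemigymnus in 195 (54.2%) and Labrichthys in 188 (52.2%). Of the 376 Ldim_g genes that did not pass, 109 had all 3 species nearer to Halichoeres and 65 had all 3 nearer to Thalassoma, and the shares of the single species were 56.1% for Coris, 54.8% for Hemigymnus and 54.5% for Labrichthys. In this set the calls with all 3 nearer to Halichoeres, 28.6% of those higher in Halichoeres and 31.4% of those higher in Thalassoma, were thus close to the 29.0% of genes that did not pass.

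In both sets, the calls in which Thalassoma lay beyond all 4 other species outnumbered those in which Halichoeres did. Among the 138 transcripts higher in Thalassoma, 42 were higher there than in each of the other species (edgeR adjusted p below 0.05 in all 4 comparisons), and among the 127 higher in Halichoeres, 35 were lower in Thalassoma than in each other species. Halichoeres was higher than each other species in 18 of the 127 and lower than each in 16 of the 138. For Ldim_g genes the numbers were 60 and 56 for Thalassoma and 32 and 25 for Halichoeres. Over all tested ENSONIT transcripts, 332 (48.1%) differed between Thalassoma and the mean of Coris, Hemigymnus and Labrichthys, and 259 (37.5%) between Halichoeres and that mean. The Ldim_g counts gave 441 genes (59.9%) and 366 (49.7%). These comparisons share libraries, and Thalassoma had more fish and deeper libraries. Of the tested ENSONIT transcripts, 101 reached the minimum for testing in Thalassoma but not in Halichoeres, and 35 the reverse. For Ldim_g genes these were 100 and 63. Features high in 1 species alone can enter only through that species, so the counts of features higher there support nothing. The parts of depth and of entry in these counts were not tested.

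**Figure D5:**
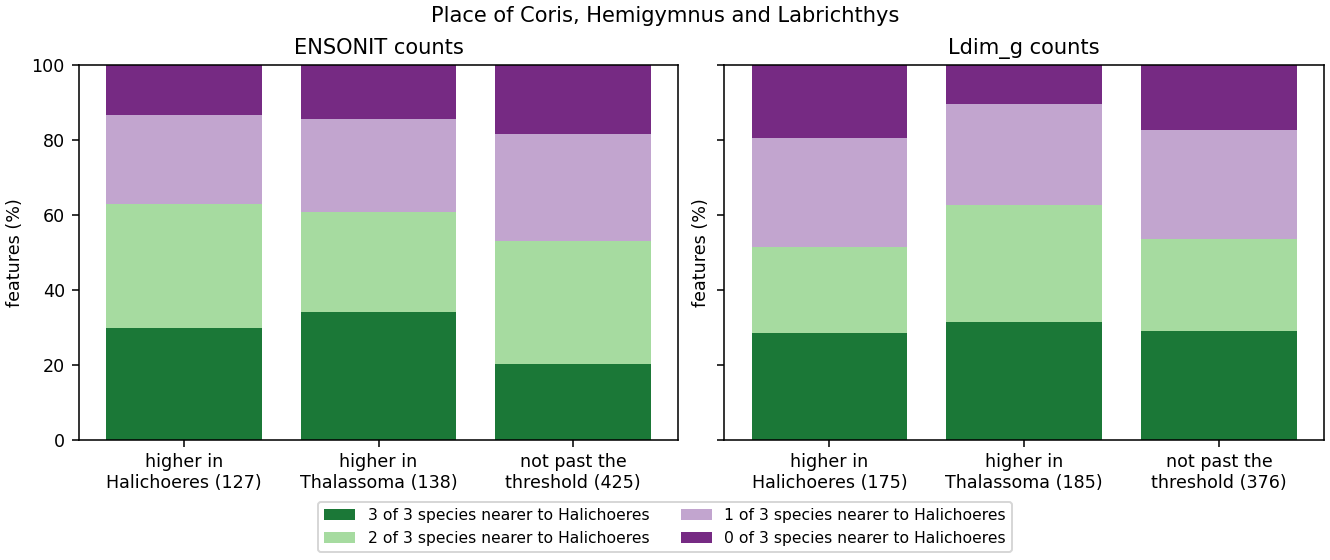
Bars give the percent of features for which 3, 2, 1 or 0 of Coris, Hemigymnus and Labrichthys were nearer to Halichoeres than to Thalassoma by mean log2-CPM, for features higher in Halichoeres, higher in Thalassoma and not past the threshold. In the ENSONIT counts all 3 were nearer to Halichoeres in 29.9% and 34.1% of the calls in each direction and in 20.2% of transcripts not past the threshold, while for Ldim_g genes the shares were 28.6%, 31.4% and 29.0%.

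Among the 10 pairs of species, the contrast was neither the smallest nor the largest. Its 265 ENSONIT transcripts stood beside 211 (30.6%) between Halichoeres and Coris, the fewest, and 333 (48.3%) between Thalassoma and Coris, the most. The other pairs of facultative cleaners differed in 299 (43.3%, Halichoeres and Hemigymnus) and 325 (47.1%, Hemigymnus and Thalassoma). Halichoeres and Labrichthys differed in 241 (34.9%) and Thalassoma and Labrichthys in 309 (44.8%), so each of the other 3 species had fewer calls against Halichoeres than against Thalassoma. Pairs without either species differed in 247 (35.8%, Coris and Hemigymnus), 256 (37.1%, Coris and Labrichthys) and 299 (43.3%, Hemigymnus and Labrichthys). The 360 Ldim_g genes (48.9%) stood beside 310 (42.1%) between Halichoeres and Coris, 416 (56.5%) between Halichoeres and Hemigymnus and 399 (54.2%) between Halichoeres and Labrichthys. Thalassoma differed from Hemigymnus in 456 (62%) and from Coris and Labrichthys in 435 each (59.1%). Pairs without either species differed in 358 (48.6%, Coris and Hemigymnus), 403 (54.8%, Coris and Labrichthys) and 415 (56.4%, Hemigymnus and Labrichthys). The difference between pairs was not tested, and pairs differ in fish and depth.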

How the data were processed

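Per the labels, 46 female wrasses of 5 species each gave 1 forebrain library. The authors deposited 2 raw count tables per fish; the values are whole numbers, and totals differ between libraries. Tools named in the submitters' processing notes are cutadapt 2.8, BWA and SAMtools; reference, counting tool and molecular identifiers were not given in the sources used here, so floors cover counting error only, while intervals from the fit include the spread between fish. Of reads in the Ldim_g tables of the 17 libraries, 95.6% stood in 5 lines that name no gene, which were left out; the ENSONIT tables have 1 such line, with 0 counts.

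Tests used R 4.3.3 and edgeR 4.0.16 on 44 libraries: filterByExpr by species (minimum count 10, minimum total 15), TMM, 1 coefficient per species, a quasi-likelihood test and Benjamini-Hochberg over all features at 0.05. The tested features held 56.5% of ENSONIT and 72.4% of Ldim_g counts of the 17 libraries. The standard error is the log2 fold change divided by the square root of F. Library measures were compared by exact permutation over all 24310 splits of 17 libraries; ENSONIT counts per 100 reads was added after seeing the data. Scripts were tested on simulated data. Features were named, 2 per direction, as stated beside them (log2-CPM with prior count 2). The Ldim_g genes picked are given without identifiers. Gene lists and cell type markers could not be used, since no names were given. Alternatives used DESeq2 1.42.0 and the settings in the closing section. The comparison, libraries and lists were chosen with earlier results of these data known. The labels number the fish within species and name no shared batch. No pair of libraries of a species, of 36 in Halichoeres and 45 in Thalassoma per set, held identical values or agreed within sampling noise (highest chi-square p = 1.43e-09). The edgeR p-values measure a spread estimated over all 44 fitted fish, with a common biological coefficient of variation of 0.244 in ENSONIT and 0.239 in Ldim_g counts. Permutation p-values measure the spread among the 17 libraries.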

Additional observations from a re-analysis of the deposited data

Results flagged for a closer look

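In 3 of 52 groups of values, 1 library lay apart from the others of its species by more than Dixon's 95% critical value, where chance gives about 1 in 20. Halichoeres melanurus 5 detected 5412 ENSONIT transcripts, the lowest of its species, and had the fewest counts of the 17 libraries, 17501. Thalassoma lunare 8 had 34.8% of reads aligned but in no Ldim_g gene, the highest of its species. Coris batuensis 10 had 1810 CPM of ENSONIT00000004952.1, the highest of its species, and is no member of the contrast.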

How the results depend on the processing

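The counts of calls stayed within 1.5 times the reported ones with all 46 libraries, with the 17 libraries alone (269 of 544 ENSONIT transcripts and 328 of 554 Ldim_g genes), without Hemigymnus melapterus 4 (311 of 701 and 410 of 752), the library of the 44 with the fewest reads, 86674, and an r of 0.543 with its own species in ENSONIT counts, with DESeq2 size factors or upper quartile scaling, with the DESeq2 Wald test (293 and 370), and without each of the 17 libraries in turn, where they ran from 253 to 287 and from 340 to 386, and from 158 to 185 and from 201 to 243 for log2 fold changes of 1 or more in size. In all 17 of these fits 221 of the 265 ENSONIT and 298 of the 360 Ldim_g calls were made in the same direction. The counts moved with the filter and with depth. No filter gave 1330 of 25209 ENSONIT transcripts (1293 of at least 1) and 1314 of 16185 Ldim_g genes (1247); a median of at least 1 count in both species gave 622 of 4490 (550) and 723 of 2925 (594). Thinning to 17501 and 18204 counts gave 107 of 345 (65) and 187 of 452 (113), with fewer features tested. Upper quartile scaling shifted the median log2 fold change of the Ldim_g genes by -0.12 and gave 157 genes higher in Halichoeres and 207 in Thalassoma. None of the 265 and 360 reported calls was called in the opposite direction under any of these settings. Without a filter, 195 of the 265 and 272 of the 360 passed again. The ENSONIT calls were then 579 higher in Halichoeres and 751 in Thalassoma. With a median of at least 1 count in both species they were 351 and 271. For Ldim_g genes these numbers were 671 and 643 without a filter, and 356 and 367 with that median.

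The sample number as a block gave 260 and 359 calls (166 and 214 of at least 1). Deviations of same-numbered fish from their species means correlated weakly (r from -0.10 to 0.04 in ENSONIT and from -0.17 to 0.07 in Ldim_g counts). In Ldim_g counts the Halichoeres fish numbered 3, 5 and 6 correlated best with the Thalassoma fish of their own number, while those numbered 1, 7, 8 and 9 did not. In ENSONIT counts none did. These matches were not tested. All 8 picked features kept direction and call in all 27 alternatives, with highest adjusted p of 0.0103.

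The share of reads that aligned but fell in no Ldim_g gene was taken over all reads listed, unaligned reads included. It was 33.8% in Halichoeres and 32.4% in Thalassoma (exact permutation adjusted p = 0.0215). This difference of 1.43 percentage points was 1.08 with all 19 libraries (exact permutation adjusted p = 0.0992). Without single libraries, the difference in the share held by the 10 most abundant ENSONIT transcripts ran from -0.0613 to 0.102 percentage points and that in Ldim_g genes detected from -275 to 55.3, neither past the threshold. The median standard error of the log2 fold change was 0.25, and what can be detected varies with the depth of a feature.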
